A study of Mus musculus with 5 samples.

Results

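TAP and 5' polyphosphatase differ in one 5' end, the cap, and the RNAs listed by name in the 2 whole-testis libraries made with these enzymes were compared one name at a time. A name was used when it had 20 or more reads in both libraries summed, after any text behind a slash and a leading rRNA_ were removed. Of the 680 names that had any read in these libraries, 274 passed, and they held 99.9% of the listed reads of the TAP library. The 406 names below the minimum held 1113 reads after TAP and 825 after 5' polyphosphatase. At the threshold itself, L1_Mus1 with 12 and 8 reads was just inside and ORR1A4 with 11 and 8 reads was just outside.

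The RNA came from whole mouse testes at postnatal day 7, and each of the 3 testis libraries (untreated, TAP and 5' polyphosphatase) was made from 600 ng of total RNA. TAP, spelled out in the labels as Tobacco alkaline phosphatase and known as tobacco acid pyrophosphatase, was used at 25 U for 1.5 h, and 5' polyphosphatase at 20 U for 0.5 h, both at 37 °C. The untreated library received neither enzyme, and 2 further libraries, from spermatogonia treated with RppH, were not part of the comparison. Libraries were cut to inserts of 115 to 255 nt. Each treatment had 1 library from a tissue of many cell types, so no difference below has a replicate check, and neither treatment nor handling can be told apart from the library. The tables list repeats and small noncoding RNAs only, so marker genes of testis cells could not be read from them.

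The 5' adaptor is joined only to an RNA that ends in a monophosphate. RNAs that were cut from a longer precursor, such as 5.8S rRNA, mature tRNAs and most small nucleolar RNAs (snoRNAs), carry this end already. RNA polymerase III leaves a triphosphate on the first base of 5S rRNA and of SINE transcripts, and both enzymes turn it into a monophosphate. RNA polymerase II transcripts, among them most spliceosomal small nuclear RNAs (snRNAs), carry a methylated guanosine cap, which TAP opens and 5' polyphosphatase leaves in place. U6 snRNA and 7SK RNA are polymerase III transcripts whose terminal phosphate is methylated.

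The sequences below show 3 of the capped RNAs at the upper end of the comparison, read from GENCODE M21 on GRCm38. Capitals mark the letters AATTTNT, the uridine-rich stretch to which Sm or Sm-like proteins bind. These letters occur in 22.2% of the 1383 annotated snRNA transcripts of up to 300 nt and in 1.86% of the 1505 snoRNA transcripts. Names in the deposited tables carry no position, so each gene stands for its name only by symbol, and other gene copies cannot be told apart.
U7 (Rnu7, chr6:124741225-124741286, minus strand, 62 nt): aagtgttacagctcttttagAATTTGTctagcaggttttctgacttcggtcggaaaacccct
U1a1 (Rnu1a1, chr11:87422867-87423030, plus strand, 164 nt): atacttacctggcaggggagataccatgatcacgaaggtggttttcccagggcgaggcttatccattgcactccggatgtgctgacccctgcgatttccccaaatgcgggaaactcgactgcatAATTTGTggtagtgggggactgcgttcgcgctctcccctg
U1b6 (Rnu1b6, chr3:96460024-96460189, minus strand, 166 nt): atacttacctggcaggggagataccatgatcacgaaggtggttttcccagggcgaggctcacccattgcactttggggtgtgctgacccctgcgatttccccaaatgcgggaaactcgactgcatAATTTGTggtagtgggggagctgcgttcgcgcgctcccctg
Rnu1a1 lies in an intron of Tex14 and Rnu7 overlaps an annotated exon of Grcc10, both on the same strand, and no other gene overlaps Rnu1b6 on its strand.

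The lower end of the comparison was held mostly by snoRNAs, and some snoRNAs are shown next because they differ from the snRNAs in the boxes they carry. Of those shown, SNORA64 and SNORND104 ranked 16 and 26 from the top of the 274 names, near the upper end. In the box C/D snoRNAs, which guide methylation of ribosomal and other RNAs, capitals mark the C box letters TGATGA and the last CTGA, the D box. TGATGA occurs in 26.0% of the annotated snoRNA transcripts of up to 300 nt and in 1.88% of the snRNA transcripts. In the box H/ACA snoRNAs, which guide pseudouridylation, capitals mark the ACA 3 nt before the 3' end.
SNORD73 (Snord73a, chr3:86138791-86138858, minus strand, 68 nt): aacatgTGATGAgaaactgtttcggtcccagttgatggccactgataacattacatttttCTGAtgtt
SNORD50 (Snord50a, chr9:88521529-88521600, minus strand, 72 nt): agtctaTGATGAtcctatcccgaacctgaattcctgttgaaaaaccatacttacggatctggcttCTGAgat
SNORD12 (Snord12, chr2:167065276-167065365, plus strand, 90 nt): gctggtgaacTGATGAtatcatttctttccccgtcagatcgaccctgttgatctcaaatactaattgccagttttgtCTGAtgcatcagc
SNORND104 (Snord104, chr11:106500993-106501062, plus strand, 70 nt): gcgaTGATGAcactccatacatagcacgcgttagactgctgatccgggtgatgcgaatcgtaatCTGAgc
SNORA30 (Snora30, chr7:127527874-127528003, plus strand, 130 nt): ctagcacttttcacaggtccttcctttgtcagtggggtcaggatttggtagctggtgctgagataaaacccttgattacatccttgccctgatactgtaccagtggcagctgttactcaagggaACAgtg
SNORA64 (Snora64, chr17:24720772-24720905, plus strand, 134 nt): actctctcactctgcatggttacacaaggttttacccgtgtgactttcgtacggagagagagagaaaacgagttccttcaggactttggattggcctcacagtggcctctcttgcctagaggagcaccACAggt
On the same strand, Snord73a lies in an intron of Rps3a1 and Snora30 in one of Srcap. Snora64 overlaps an annotated exon of Rps2, Snord12 one of Zfas1 and Snord50a one of Snhg5.

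Levels were expressed in 2 ways, since the libraries differed in makeup. The first is RPM, a name's reads divided by the 5.8S rRNA reads of its library and multiplied by 1000000, and the second is the share of listed reads. 5.8S rRNA took 50.2% of the 1067851 listed reads after TAP, 19.2% of the 1081523 after 5' polyphosphatase and 27.2% of the 1160933 in the untreated library. A TAP/5Pase ratio per listed read is therefore 2.61 times the ratio per 5.8S read for every name, while the order of the names is the same. Ratios are given per 5.8S read unless stated otherwise, with a 95% interval from the read counts. These intervals cover counting error only, since the reads carry no molecular identifiers, and they compare the libraries, not the enzymes. One read stands for 1.87 RPM after TAP and 4.81 RPM after 5' polyphosphatase, and 3 reads were taken as the floor.

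Most names were not higher after TAP. The median ratio over the 274 names was 0.287, and 0.750 per listed read. The ratio exceeded 1 for 30 names and was below 1 for 243, and among names above the floor in both libraries it ran from 0.0143 to 36.8. Only 16 names (5.84%) were 2-fold or more higher after TAP. They had to be so per listed read too, where every ratio is 2.61 times larger. These 16 names held 28.8% of the listed reads after TAP, 1.04% after 5' polyphosphatase and 1.28% without enzyme. They comprised the snRNAs U5, U7, U1a1 and U1b6, 4 snRNA or scRNA names that identify no single RNA, SNORA77 and SNORA64, 1 tRNA and 5 repeats, L1_Mur3, MMVL30-int, MMSAT4, MurSatRep1 and URR1B. Of the 16, 8 rested on fewer than 100 reads, and 13 had an interval that lay wholly above 1. In the other direction, 201 names (73.4%) were 2-fold or more lower after TAP, and 102 of them (37.2%) were so per listed read too. Per listed read, 43 names (15.7%) were 2-fold or more higher.

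**Figure D1:**
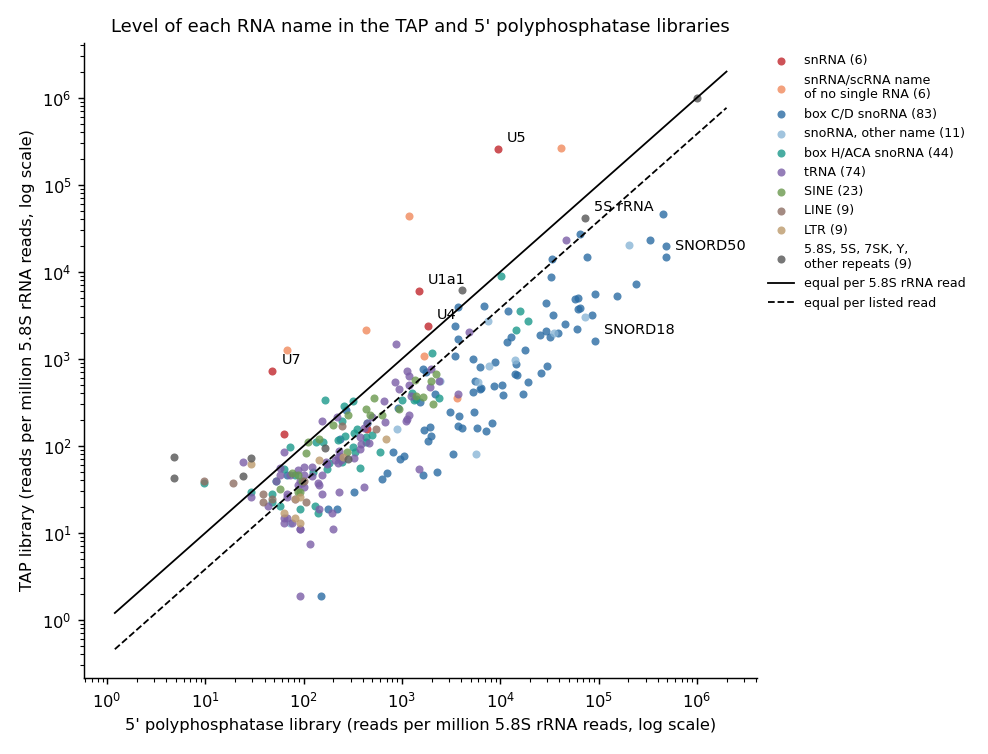
Each point is 1 of the 274 names, with its level after 5' polyphosphatase on the x axis and after TAP on the y axis, both in RPM on log scales and coloured by class. U5, U7 and U1a1 lie above the solid line of equal levels, whereas most of the 83 box C/D snoRNAs lie below both lines.

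Among names of a single small RNA, the capped snRNAs U5 and U7 had the highest ratios. U5, a core RNA of the spliceosome that holds the exon ends during splicing, had 138302 reads after TAP, 1959 after 5' polyphosphatase and 3322 without enzyme. Its level was 258017, 9418 and 10509 RPM in the same order. The TAP library alone was high, and the other two differed little by comparison. The ratio of U5 was 27.4 (26.2 to 28.6), and U5 made up 12.95% of the listed reads after TAP.

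U7, which guides the processing of the 3' end of histone transcripts, was read 390, 10 and 19 times after TAP, after 5' polyphosphatase and without enzyme. These are 728, 48.1 and 60.1 RPM, so U7 was again high after TAP only, with a ratio of 15.1 (8.08 to 28.3). The annotated U7 is 62 nt long, less than the lower insert length of 115 nt.

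U1 recognises the 5' splice site, and 2 of its names passed the minimum. U1a1 had 3192, 310 and 257 reads, which are 5955, 1490 and 813 RPM. Its ratio was 3.996 (3.56 to 4.49). U1b6 had 74, 13 and 10 reads, or 138, 62.5 and 31.6 RPM, and a ratio of 2.21 (1.23 to 3.98). The intervals of the 2 U1 names overlapped, and reads of such near-identical copies may be split between names. For both, the level was lowest without enzyme and highest after TAP.

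U4, which pairs with U6 before splicing starts, had 1267, 382 and 647 reads. Its levels of 2364, 1837 and 2047 RPM lay close together, and its ratio was 1.29 (1.15 to 1.44), the lowest of the 5 names. The intervals of U5, U1a1 and U4 did not overlap, so members of the same capped class differed by more than counting error between these libraries.

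Summed over the 5 names, the capped snRNAs had 143225 reads after TAP and 2674 after 5' polyphosphatase, a ratio of 20.8 (20.0 to 21.6) and of 54.2 per listed read. Of the 5, 4 were 2-fold or more higher, against 5.84% of all names. Per listed read all 5 were, against 15.7% of all names. U5 carried most of this total, and without it the ratio was 2.67 (2.47 to 2.89). Of the other RNAs on the list, U3, which takes part in cleavage of the rRNA precursor, was listed with 0 reads after TAP and 1 read in each of the other testis libraries, as U3B. The name U2 had no testis read, which allows this name at most 5.60 RPM after TAP and 14.4 RPM after 5' polyphosphatase. Whether reads of U2 were listed under the names that identify no single RNA is not known. U11, U12, U4atac, U8, U13 and the telomerase RNA are not names in these tables.

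**Figure D2:**
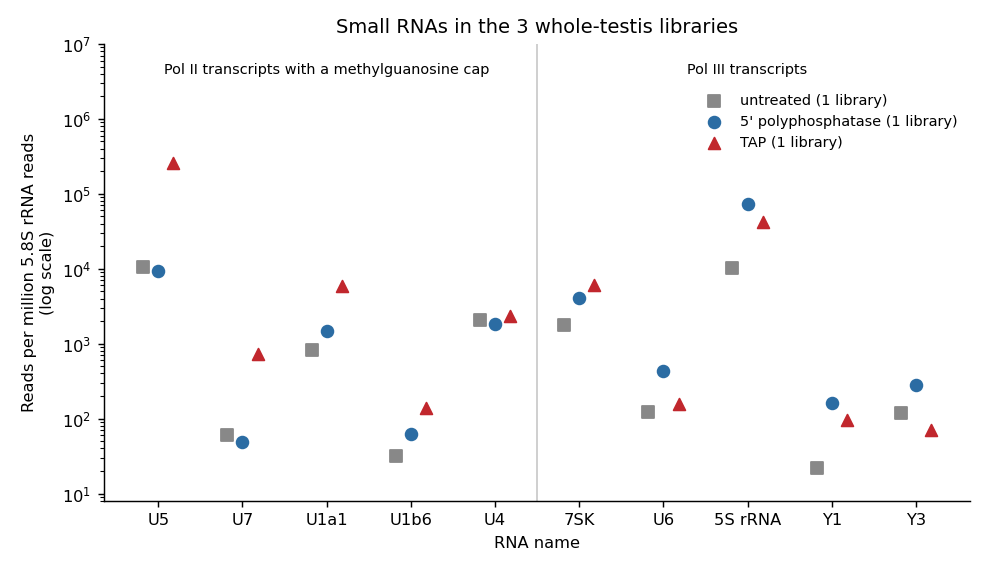
Level of 5 capped snRNAs (left) and 5 polymerase III transcripts (right) in each whole-testis library, in RPM on a log scale, with 1 symbol per library and no error bar. U5, U7, U1a1 and U1b6 are highest after TAP, and U6, 5S rRNA, Y1 and Y3 are highest after 5' polyphosphatase. U4 is nearly level at 1837 to 2364 RPM, but its TAP/5Pase ratio per listed read is 3.36.

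Several of the names with the highest ratios identify no single RNA. snRNA_RNA had the highest ratio of all, 36.8 (32.4 to 41.7), from 23235 reads after TAP, 245 after 5' polyphosphatase and 598 without enzyme. snRNA_small was the most abundant listed name after TAP behind 5.8S rRNA. It had 140370, 8586 and 10580 reads and a ratio of 6.34 (6.21 to 6.48). snRNA_musculus (673, 14 and 16 reads) had a ratio of 18.7 and scRNA_embryo (1160, 90 and 39 reads) one of 5.00. snRNA_nuclear (584, 348 and 148 reads) had a ratio of 0.651 and snRNA_snRNA (188, 761 and 891 reads) one of 0.0959, so the 6 names did not form 1 group. Which RNAs they hold is not given in the sources used here.

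5S rRNA, 7SK, U6 and the Y RNAs, all made by polymerase III, gave ratios from 0.250 to 1.50. 5S rRNA, the small RNA of the large ribosomal subunit, had 22417 reads after TAP, 15080 after 5' polyphosphatase and 3193 without enzyme. In RPM these are 41821, 72501 and 10100. Both enzyme libraries were above the untreated one, and the ratio of TAP to 5' polyphosphatase was 0.577 (0.565 to 0.589), or 1.51 per listed read. 7SK, which holds the elongation factor P-TEFb inactive, had 3276, 845 and 562 reads. Its levels were 6112, 4063 and 1778 RPM, with a ratio of 1.50 (1.39 to 1.62). The annotated 7SK is 331 nt long, more than the upper insert length of 255 nt.

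U6, the catalytic snRNA of the spliceosome, had 84, 91 and 39 reads and a ratio of 0.358 (0.266 to 0.482). Among the names of a single snRNA it was the 1 that was 2-fold or more lower after TAP. Y1 (51, 34 and 7 reads) and Y3 (38, 59 and 37 reads), small RNAs bound by the Ro60 protein, had ratios of 0.582 and 0.250. Per listed read the ratios of U6, Y1 and Y3 were 0.935, 1.52 and 0.652, on both sides of 1.

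The box C/D snoRNAs were the main class that was lower after TAP. As a class they had 142969 reads after TAP, 732620 after 5' polyphosphatase and 704813 without enzyme, or 13.4%, 67.7% and 60.7% of the listed reads. The class ratio was 0.0757 (0.0753 to 0.0762), and 0.198 per listed read. Of the 83 members, 77 were 2-fold or more lower and 66 were so under both denominators, beside the 73.4% and 37.2% of all names. None was 2-fold or more higher per 5.8S read, beside 5.84% of all names. Per listed read 2 were, SNORND104 at 2.82 and SNORD85 at 2.51, beside 15.7% of all names. The annotated SNORD55, SNORD50, SNORD12 and SNORD49 are 79, 72, 90 and 72 nt long, less than the lower insert length of 115 nt. SNORD22 (126 nt), SNORD15 (145 to 148 nt) and SNORD17 (238 nt) are longer than it, with ratios of 0.461, 0.134 and 0.062. Whether the size cut of each library bears on the class ratio was not tested.

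The 5 most abundant names of the class are given next. The class ratio did not rest on the most abundant one, SNORD12, without which it was 0.0720. SNORD55 had 10709, 101630 and 104688 reads, which are 19979, 488615 and 331161 RPM, and a ratio of 0.0409 (0.0401 to 0.0417). SNORD50 had 7958, 100124 and 89831 reads and a ratio of 0.0308 (0.0301 to 0.0316). SNORD12 had 24524, 94079 and 105150 reads and a ratio of 0.101 (0.0997 to 0.103). In all 3 names the TAP library stood apart, and the untreated and 5' polyphosphatase libraries held similar numbers of reads. In RPM the 5' polyphosphatase library was above the untreated one for all 3, as for SNORD12 at 452312 and 332623 RPM.

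SNORD43 (12400, 69598 and 51071 reads) and SNORD49 (3880, 50365 and 44131 reads) had ratios of 0.0691 and 0.0299. Among these 5 abundant names, the intervals of SNORD50 and SNORD49 overlapped and the others did not. The lowest ratios among names of 100 or more reads were those of snoZ39, at 0.0143 (0.0105 to 0.0193), and SNORD18, at 0.0173 (0.0162 to 0.0185). snoZ39 had 43 reads after TAP, 1170 after 5' polyphosphatase and 864 without enzyme, and SNORD18 had 855, 19155 and 16096. They were followed by SNORD27, SNORD48, SNORD73, SNORD91, SNORD65, SNORD102, SNORD36 and SNORD70, with ratios from 0.0209 to 0.0279. SNORD78 had 1 read after TAP, under the floor of 3 reads, and 31 after 5' polyphosphatase. Its ratio of 0.0125 had an interval from 0.00171 to 0.0917 and could not be ranked against these names.

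At the upper end of the class were SNORND104, SNORD85 and SNORD35. SNORND104 had 2136, 768 and 855 reads, or 3985, 3692 and 2705 RPM, and the ratio was 1.08 (0.994 to 1.17). SNORD85 had 139, 56 and 174 reads and a ratio of 0.963 (0.706 to 1.31). SNORD35, with 1290, 720 and 2284 reads, had a ratio of 0.695 (0.635 to 0.762), or 1.815 per listed read. Each of the 3 intervals lay above that of SNORD12 and of the class, so the box C/D names were not uniform beyond counting error. The sequence of SNORND104 is 70 nt long and that of SNORD73, at 0.0223 (0.0151 to 0.0329), 68 nt, and both hold the C and D box letters.

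The 11 snoRNA members of other names had a class ratio of 0.0873, and all 11 were 2-fold or more lower, beside 73.4% of all names. An annotated length was found by symbol for 79 of the 138 snoRNA members. With the others missing, the ratios were not set against length over the members as a set.

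The box H/ACA snoRNAs were lower after TAP by less than the box C/D snoRNAs. Their class had 12815, 15984 and 25947 reads and a ratio of 0.311 (0.304 to 0.318), or 0.812 per listed read. Of the 44 members, 28 were 2-fold or more lower, beside 73.4% of all names, and 2 were 2-fold or more higher, beside 5.84%. Per listed read the balance turned, with 7 lower and 10 higher and a median of 0.990, beside 37.2% and 15.7% of all names.

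SNORA73, the most abundant of them, had 4803, 2109 and 7138 reads, or 8961, 10140 and 22580 RPM. Its ratio was 0.884 (0.840 to 0.930), and 2.31 (2.19 to 2.43) per listed read, on the other side of 1. SNORA72 (1462, 3996 and 3810 reads), SNORA28 (1901, 3335 and 4237 reads) and SNORA68 (1144, 2989 and 6013 reads) had ratios of 0.142, 0.221 and 0.149. SNORA36 (625, 416 and 444 reads) had one of 0.583. Per listed read SNORA72, SNORA28 and SNORA68 had 0.371, 0.577 and 0.388, and SNORA36 had 1.52. The interval of SNORA73 lay above those of the other 4 names. The annotated SNORA73, SNORA28, SNORA68 and SNORA36 are 205, 127, 131 and 132 nt long, within the insert range of 115 to 255 nt.

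SNORA64 had 178 reads after TAP, 34 after 5' polyphosphatase and 38 without enzyme. At 332, 163 and 120 RPM it was high after TAP only, with a ratio of 2.03 (1.41 to 2.93). SNORA77 (20, 2 and 2 reads) had a ratio of 3.88, whose interval of 0.907 to 16.6 included 1, and SNORA44 (52, 15 and 18 reads) one of 1.35 (0.757 to 2.39). The 2 reads of SNORA77 after 5' polyphosphatase are under the floor of 3 reads, at which its ratio would be 2.59. The lowest members were SNORA30, at 0.120 from 9, 29 and 32 reads, SNORA72, and SNORA55, at 0.144 from 46, 124 and 88 reads. The intervals of SNORA64 and SNORA30 did not overlap.

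**Figure D3:**
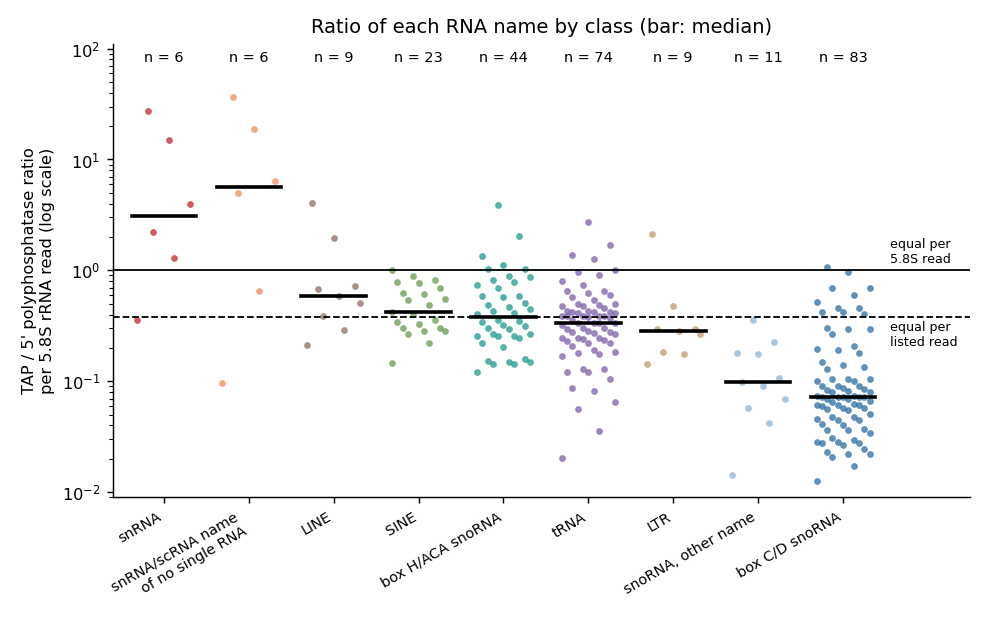
TAP/5Pase ratio per 5.8S rRNA read of each name on a log scale, by class, with 1 point per name, a bar at the class median and the number of names above. The snRNAs reach from 0.358 to 27.4, and the medians of the box H/ACA and box C/D snoRNAs are 0.379 and 0.0725. The dashed line is where a name is equal per listed read.

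The tRNA names are single genes, written as chromosome, gene number, amino acid and anticodon, and reads of identical genes may have been given to any of them. Whether the reads came from mature tRNAs or from precursors is not given by these names. The class had 19840 reads after TAP, 17984 after 5' polyphosphatase and 14146 without enzyme. Its ratio was 0.428 (0.420 to 0.437), or 1.12 per listed read. Of the 74 members, 58 were 2-fold or more lower and 1 was 2-fold or more higher, shares near the 73.4% and below the 5.84% of all names. Per listed read 15 were lower and 8 higher, beside 37.2% and 15.7%. GluCTC of chr3.trna745 made up most of the class with 12441, 9721 and 9307 reads, and its ratio was 0.497 (0.484 to 0.510). Without this gene the class ratio was 0.348, or 0.907 per listed read, so that the value above 1 per listed read rested on it.

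The highest tRNA ratios were those of 3 genes. ArgTCT of chr19.trna637 had 35, 5 and 5 reads and a ratio of 2.72 (1.06 to 6.93). The selenocysteine tRNA, SeC(e)TCA of chr7.trna86, which reads UGA codons of selenoproteins, had 798, 182 and 225 reads. Its level was 1489 RPM after TAP, 875 after 5' polyphosphatase and 712 without enzyme, and the ratio was 1.70 (1.45 to 2.00). This tRNA is known to keep its 5' triphosphate. LeuTAA of chr10.trna1316 (46, 13 and 9 reads) had a ratio of 1.37 (0.742 to 2.54).

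At the lower end, ArgTCT of chr11.trna1818 had 29 reads after TAP, 313 after 5' polyphosphatase and 1 without enzyme. This is 54.1, 1505 and 3.16 RPM, so it was highest after 5' polyphosphatase, with the TAP library between the other two. The ratio was 0.0360 (0.0246 to 0.0526), and 0.0938 per listed read. SerAGA of chr4.trna16 (6, 41 and 5 reads) had a ratio of 0.0568 (0.0241 to 0.134). TyrGTA of chr13.trna959 (1, 19 and 0 reads) had one of 0.0204, with an interval from 0.00273 to 0.153. Its 1 read after TAP is under the floor of 3 reads. GlyACC of chr11.trna205, chosen after its values were seen, had 18, 85 and 1 reads and a ratio of 0.0822.

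Genes with the same anticodon could differ. The 4 ArgTCT members had ratios of 0.0360, 0.184, 0.232 and 2.72, and the intervals of the lowest and the highest overlapped no other interval of the 4. In GlyGCC, chr8.trna560 (104, 32 and 36 reads) had 1.26 and chr8.trna887 (210, 771 and 522 reads) had 0.106, and the intervals of these genes did not overlap. The 2 LeuTAA members had 1.37 and 0.247, with intervals that did not overlap. Among the 5 AlaCGC members and the 5 AlaAGC members the ratios ran from 0.222 to 0.416 and from 0.209 to 0.388, with all intervals overlapping.

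Without enzyme, 25 of the 74 tRNA members had 3 or fewer reads and 8 of these had none. In total these 25 had 34 reads without enzyme, 1384 after 5' polyphosphatase and 1102 after TAP. Their median ratio was 0.334, with 23 of them 2-fold or more lower after TAP, and that of the other 49 was 0.380, with 35 lower, beside 73.4% of all names. TyrGTA of chr5.trna109 was one of them, with 391 reads after TAP, 233 after 5' polyphosphatase and 1 without enzyme, and TyrGTA of chr14.trna191 had 268, 246 and 1. All 7 TyrGTA members had 2 or fewer reads without enzyme.

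**Figure D4:**
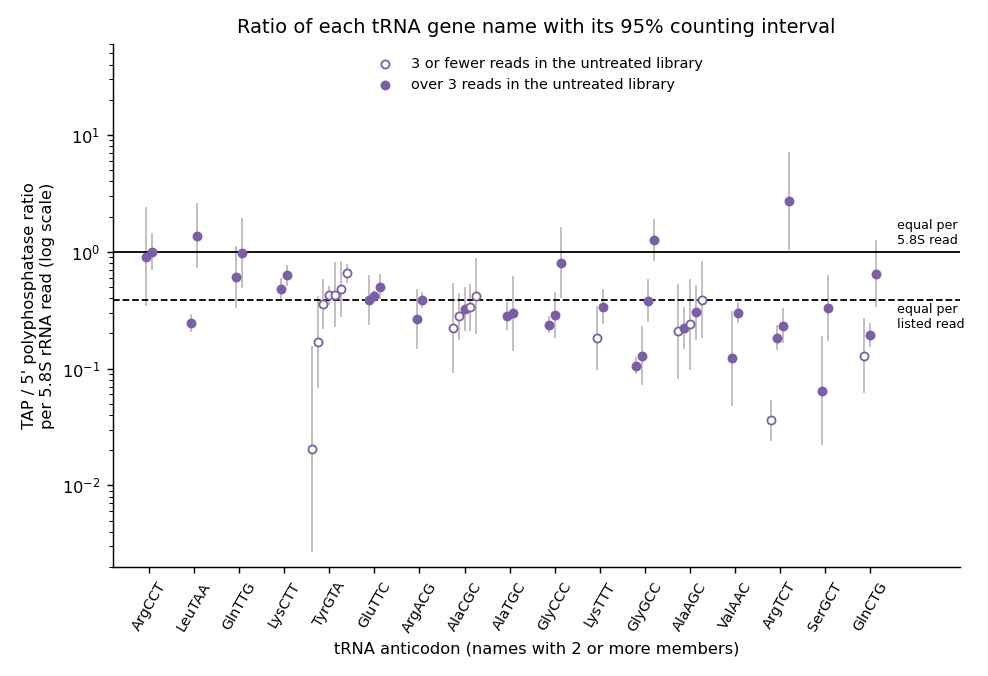
TAP/5Pase ratio per 5.8S rRNA read of each tRNA gene name on a log scale, grouped by amino acid and anticodon, for the anticodons with 2 or more members, with bars for the 95% counting interval. Open circles mark names with 3 or fewer reads in the untreated library. The 4 ArgTCT names span from 0.0360 to 2.72, and all 7 TyrGTA names are open circles.

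SINEs are short polymerase III repeats of the genome, and the reads of a name come from many copies. Their class had 2878 reads after TAP, 3205 after 5' polyphosphatase and 688 without enzyme, with a ratio of 0.348 (0.331 to 0.366) and 0.910 per listed read. None of the 23 members was 2-fold or more higher, and 13 were 2-fold or more lower, beside 5.84% and 73.4% of all names. Per listed read 5 were 2-fold or more higher and 1, B1_Mm, was lower, beside 15.7% and 37.2% of all names. The 4 B2 names, which belong to tRNA-derived SINEs, kept close together, from 0.283 for B2_MM1o to 0.355 for B2_MM1t, with overlapping intervals. B2_MM1o had 554 RPM after TAP, 1957 after 5' polyphosphatase and 161 without enzyme, so both enzyme libraries were above the untreated one.

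The B1 names, which derive from 7SL RNA, were spread more widely. B1_Mm had 163, 431 and 62 reads and a ratio of 0.147 (0.123 to 0.176). B1_Mus2 (194, 340 and 68 reads) and B1_Mus1 (200, 288 and 52 reads) had ratios of 0.221 (0.186 to 0.264) and 0.269 (0.225 to 0.323). The interval of B1_Mm lay below those of all 6 other B1 names. The 4 B1_Mur names ran from 0.301 to 0.550, on 29 to 103 reads each. The highest SINE ratios were those of B4 (60, 23 and 6 reads), at 1.01 (0.626 to 1.64), PB1 (94, 41 and 25 reads), at 0.890, and ID_B1 (64, 30 and 9 reads), at 0.828. B3 (309, 283 and 42 reads) and B3A (120, 59 and 15 reads) had 0.424 and 0.789, with intervals that did not overlap. Similar subfamilies can exchange reads in the assignment.

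**Figure D5:**
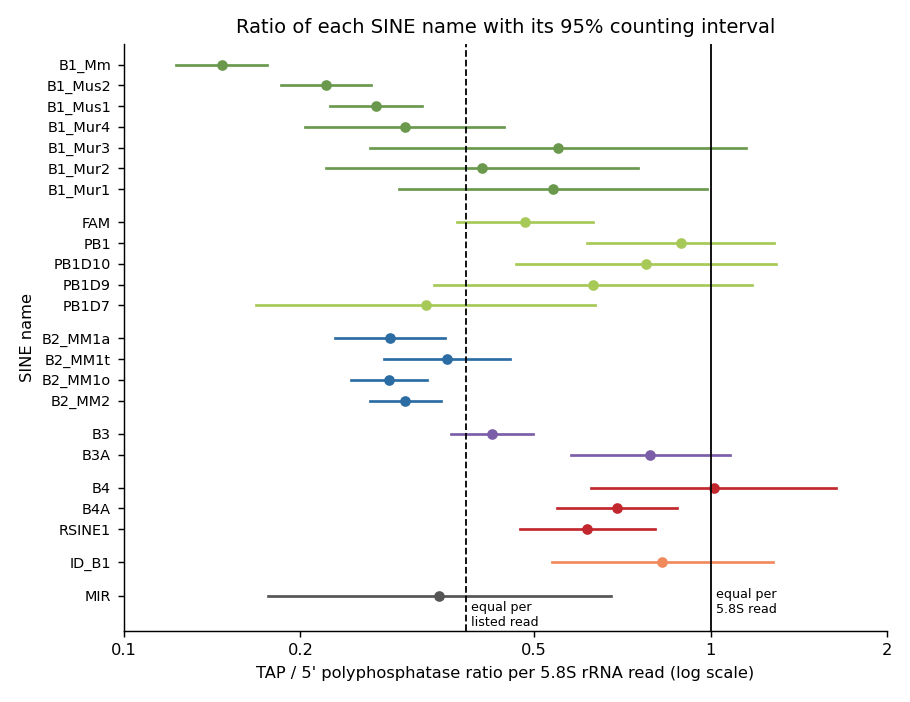
TAP/5Pase ratio per 5.8S rRNA read of each of the 23 SINE names on a log scale, with bars for the 95% counting interval and colours that set related names apart. B1_Mm is lowest at 0.147, the 4 B2 names lie between 0.283 and 0.355, and B4 is at 1.01.

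LINEs and LTR elements, which are transcribed by polymerase II, had few reads. LINEs had 504, 299 and 241 reads over 72 names and a class ratio of 0.654 (0.567 to 0.755). Per listed read the LINE ratio was 1.71 (1.48 to 1.97), on the other side of 1, and 7 of the 9 members were above 1. LTR elements had 661, 517 and 448 reads over 185 names and a class ratio of 0.496 (0.442 to 0.557). These totals include names under 20 reads. On the members alone the LINE ratio was 0.468 and the LTR ratio 0.277, and the LTR ratio per listed read was 1.29 over all names and 0.723 on the members. Of the 9 LINE members 1 was 2-fold or more higher and 3 were lower, and of the 9 LTR members 1 was higher and 8 were lower, beside 5.84% and 73.4% of all names. Per listed read 2 LINE members were higher and none lower, and 1 LTR member was higher and 3 were lower, beside 15.7% and 37.2% of all names.

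L1_Mur3 (21, 2 and 2 reads) had a ratio of 4.07 and MMVL30-int (33, 6 and 6 reads), the internal part of the VL30 retroelement, one of 2.13, and both intervals included 1. The 2 reads of L1_Mur3 after 5' polyphosphatase are under the floor of 3 reads, at which its ratio would be 2.72. The other highest names were MusHAL1 at 1.94 and L1Md_T at 0.728 among LINEs, and MTD at 0.479 and ERVB4_1B-I_MM-int at 0.298 among LTR elements. The lowest were L1Md_A at 0.212, L1_Mm at 0.288 and L1Md_F2 at 0.388, and IAPLTR1_Mm at 0.143, IAPEz-int at 0.175 and MT-int at 0.183. IAPEz-int, the internal part of the intracisternal A particle, had 64 reads after TAP, 142 after 5' polyphosphatase and 123 without enzyme.

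Among the repeats of other kinds that were 2-fold or more higher, named after their values were seen, MMSAT4 had 40, 1 and 3 reads, a ratio of 15.5 with an interval from 2.13 to 113. URR1B (23, 1 and 1 reads) had 8.92 (1.21 to 66.1), and MurSatRep1 (39, 6 and 1 reads) had 2.52 (1.07 to 5.96). All rest on at most 40 reads in a library, and the single reads of MMSAT4 and URR1B after 5' polyphosphatase are under the floor of 3 reads, at which the ratios would be 5.17 and 2.97.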

How the data were processed

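The values are read counts, which the authors deposited for each library as a list of repeat and RNA names, not normalized. Per the labels and the study's methods, the TruSeq Small RNA kit and a MiSeq were used, the 3' adaptor was trimmed with Cutadapt, untrimmed reads were dropped, and RepeatMasker named the rest. Versions and the repeat library are not given in the sources used here. The tables hold no positions.

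The names, lists and comparisons were chosen with earlier results of these data known. Groups came from the sample labels. For each name with at least 20 reads in the 2 libraries summed, RPM and the share of listed reads were computed, and their ratio with a 95% interval (log scale, variance the sum of 1 over each count). A change of 2-fold or more was counted. No test was made, as each treatment has 1 library, with 1067851 to 1160933 listed reads. Named in the text were the capped snRNAs, the reference RNAs, the 10 highest and 10 lowest ratios on 100 or more reads, the 3 highest and 3 lowest of each class, and the 5 most abundant snoRNAs of each kind. Others were added to compare genes of 1 anticodon or subfamily. The intervals were tested on simulated data for the 274 names: where 200 were changed 4-fold between the simulated libraries, 94.9% of their intervals held the true ratio. The simulated counts carried counting error only (Poisson), which the intervals assume. The simulation therefore checks the calculation and not the spread between real libraries. In the untreated and the 5' polyphosphatase tables, 1 line each has a name without a count and was skipped. Sequences were read from GENCODE M21 transcripts. The sequences of some RNAs named in the text are not reported here. The work was done in Python 3.11.15 with scipy 1.17.1, numpy 2.4.6 and matplotlib 3.10.9.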

Additional observations from a re-analysis of the deposited data

Results flagged for a closer look

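Some names of capped snRNAs without a read in the TAP and 5' polyphosphatase libraries of testis were listed in the spermatogonia libraries. Those were treated with RppH, and the comparison did not use them. U2, which pairs with the branch point of introns, had 75 and 113 reads there, and U1b1, a further U1 name, had 48 and 60. The spermatogonia differ from whole testis in cells and enzyme, which cannot be told apart here.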

How the results depend on the processing

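Every denominator other than 5.8S rRNA moved all ratios by 1 common factor and left their order as it was. The median ratio of the 274 names rose from 0.287 to 0.750 per listed read, 0.608 per sequenced read, 0.498 per 5S rRNA read and 0.565 per listed read that is not 5.8S rRNA, snRNA or snoRNA. In the same order of listed reads, sequenced reads and the remainder, 43, 33 and 28 names were 2-fold or more higher after TAP instead of 16, and 102, 114 and 121 were lower instead of 201. A minimum of 50 or 100 reads left 9 or 8 higher names, a fold of 5 left 8 higher and 104 lower, and no minimum gave 194 higher and 364 lower among all 680 names. Of 18 classes (SINE families counted singly, without 5.8S rRNA, the names of no single RNA and repeats of other kinds, of which the latter pair stood at 6.42 and 2.85), 3 had a ratio above 1, against 13 per listed read, 11 per sequenced read, 8 per 5S rRNA read and 9 per remaining read. The capped snRNA total of 20.8 became 54.2, 43.9, 36.0 and 40.9 in that order, 9.47 with the names beginning with snRNA_ that identify no RNA (scRNA_embryo left out), and 2.67 without U5, an alternative chosen after seeing the data. Above 1 lay 30 of the 274 names, against 106 per listed read. Among the class totals and the names set by the rule that were 2-fold or more lower, directions turned for the B3 total (1.27 per listed and 1.03 per sequenced read), the LTR total (1.29 and 1.05), MTD (1.25 and 1.01) and, per listed read, the tRNA total (1.12), the Y RNA total (1.002) and L1Md_F2 (1.01). In alternatives chosen after seeing the data, the LTR total per listed read was 0.723 on the members and 1.61 without its most abundant name, and the tRNA total 1.13 and 0.907. Which denominator is right was not tested. No paired analysis was possible because each treatment of testis has 1 library.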
